A study of Canis lupus familiaris with 22 samples.

Results

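The genes described are the heat shock proteins and the DNAJ co-chaperones of the dog. They were found by name, as the gene names on the array that begin with HSPA, HSPB, HSPD, HSPE, HSPH, HSP90, DNAJA, DNAJB or DNAJC. This gave 58 of 34382 gene names, measured by 106 of 43603 probes. HSPBAP1 and HSPBP1 enter by the first letters of their names only, since they are proteins that bind heat shock proteins, and HSPB11 carries the name of a small heat shock protein but works in cilia. HSPA1A and HSPA8 have no probe under those names, so the main inducible and the main constitutive HSP70 of the cytosol were not measured under their own symbols.

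Blood RNA was compared between healthy dogs (ctrl, n = 8), dogs with canine atopic dermatitis (cAD) before allergen-specific immunotherapy (0, n = 7) and the same 7 dogs after 6 months of this therapy (6 months). Each array carried the RNA of 1 dog in Cy5 and, in Cy3, a common reference pooled from 13 healthy dogs that were not otherwise studied. The patients were privately owned, and both groups held several breeds and both sexes, but age, sex and breed are not attached to the arrays. No group of untreated cAD patients was sampled again at 6 months, so therapy and time cannot be told apart. The labels name whole blood and the study's methods name peripheral blood nuclear cells.

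Heat shock proteins are molecular chaperones, which hold unfolded proteins and help them reach their folded form. HSP70 proteins bind short stretches of their clients in a cycle driven by ATP, DNAJ proteins deliver the clients and start that cycle, HSP110 proteins restart it by exchanging nucleotide, and HSP90 finishes the folding of kinases and receptors. In blood cells many of these genes are transcribed at all times, and part of them respond to heat shock factor under heat, fever or the handling of cells, while the chaperones of the endoplasmic reticulum follow the load of secreted protein.

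Values below are log2 ratios of Cy5 to Cy3, averaged over the probes of a gene, so that 0 means the level of the reference. A ratio compares 1 gene between groups and does not rank genes by abundance. A probe was used when Cy5 was well above background, by the scanner software's own call, on at least 7 of the 22 arrays. Of the 58 genes, 57 passed with 104 probes. The gene that did not was HSPE1, the lid of the mitochondrial chaperonin, whose only probe was above background on 3 ctrl arrays and 0 cAD arrays, and 1 probe of DNAJA4 was also left out. Of the 57 genes, 42 had a probe above background on all 22 arrays. A further 7 were above background on only 1 to 6 of the 14 cAD arrays and entered mainly through ctrl, and DNAJB7 was above background on 8 ctrl arrays and 0 cAD arrays. For these 8 genes a lower value in patients than in ctrl is favoured by the filter itself and is read as no result. Gene ratios were exactly 0, as the software writes for part of the dim spots, in 21 cases, of which 0 were in ctrl, 8 in 0 and 13 in 6 months.

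The comparison 0 vs. ctrl asks how the blood of cAD patients differs from that of healthy dogs. In limma, with Benjamini-Hochberg adjustment over 29938 genes, 0 of 57 chaperone genes had an adjusted p under 0.05, where 0.0434% of all genes (13) did. Before adjustment, 4 of the 57 were higher in 0 (DNAJC11, DNAJC17, HSPBAP1 and DNAJA4) beside 3.93% of all genes. Another 2 were lower (DNAJB12 and DNAJC5B) beside 8.55% of all genes, and DNAJC5B is among the genes that entered through ctrl, so its lower value is no result. Without the array of dog 7 at 0 the unadjusted count was 3 (5.26%, beside 10.8% of all genes in both directions). After adjustment, DNAJC11 and DNAJC17 passed without the array of dog 1 at 0, and DNAJC11 alone passed without that of dog 2 at 0. These dogs have the lowest values of both genes at 0, so larger differences without them are fixed by the choice. The count of 13 over all genes was 437 without dog 1 at 0, 123 without dog 2 at 0 and 108 without dog 3 at 6 months. It was 0 without ctrl dog 1, 2, 4, 5 or 8 or dog 3, 6 or 7 at 0, 1 without ctrl dog 6 or dog 5 at 0, 2 without ctrl dog 7, 4 without ctrl dog 3, 7 without dog 4 at 0 and 8 without dog 5 at 6 months. DNAJC11, DNAJC5B, DNAJC27, DNAJC18, DNAJC7, DNAJC16, HSPA4L, HSPB3, HSPB7, HSPB8 and HSPB11 are named here and below after their values were seen.

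The comparison 6 months vs. ctrl asks what remained different after therapy. It shares the ctrl arrays with the former. Again 0 of 57 chaperone genes passed limma after adjustment, beside 0% of all genes. Before adjustment 0 were higher (all genes 4.27%) and 1, DNAJC27, was lower (all genes 2.89%). DNAJC27 also entered through ctrl, with 8 ctrl arrays, 3 at 0 and 2 at 6 months above background, so its lower value is no result. Leaving out ctrl dog 1 raised this unadjusted count to 4 (7.02%, beside 8.97% of all genes in both directions). Leaving out dog 4 at 6 months raised it to 3 (5.26%, beside 13%). It was 2 (3.51%) without ctrl dog 5 (all genes 6.86%) or without dog 2 (8.25%) or dog 5 (8.16%) at 0. The same count of 2 was found without dog 2 (all genes 7.64%) or dog 3 (6.03%) at 6 months. Over all genes the adjusted count was 2 without dog 1 at 0 or dog 2 at 6 months, and 1 without dog 3 at 0 or dog 1 at 6 months.

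The comparison 6 months vs. 0 follows the same dogs through therapy. Of the 57 genes, 0 passed limma after adjustment, beside 0% of all genes. Before adjustment 0 were higher (all genes 4.32%) and 5 were lower (all genes 2.2%), namely DNAJC11, DNAJC17, DNAJC27, DNAJC18 and DNAJC7. All 5 are of the DNAJC class, and DNAJC27 was above background on few arrays of either time. This count was 2 with the slide (all genes 4.55%) or the scan day (3.85%) as a random block. It was 0 with the slide as a fixed block (all genes 2.15%) or in dogs 1 to 3 alone (3.9%). The unadjusted count was 10 without dog 2 at 0 (17.5%, beside 10.5% of all genes in both directions). It was 2 without dog 5 at 0 (all genes 6.03%) or dog 7 at 6 months (5.68%). It was 3 without dog 4 (all genes 6.85%), dog 6 (5.86%) or dog 7 (6.02%) at 0 or without dog 2 at 6 months (6.32%). Over all genes the adjusted count was 101 without dog 1 at 0, 17 without dog 2 at 0, 91 without dog 3 at 6 months and 1 without dog 6 at 6 months. In each of the 3 comparisons the ranges of the groups overlapped for all 57 genes. The share over all genes tested is not given here, so this is read as no result about the chaperone genes.

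**Figure D1:**
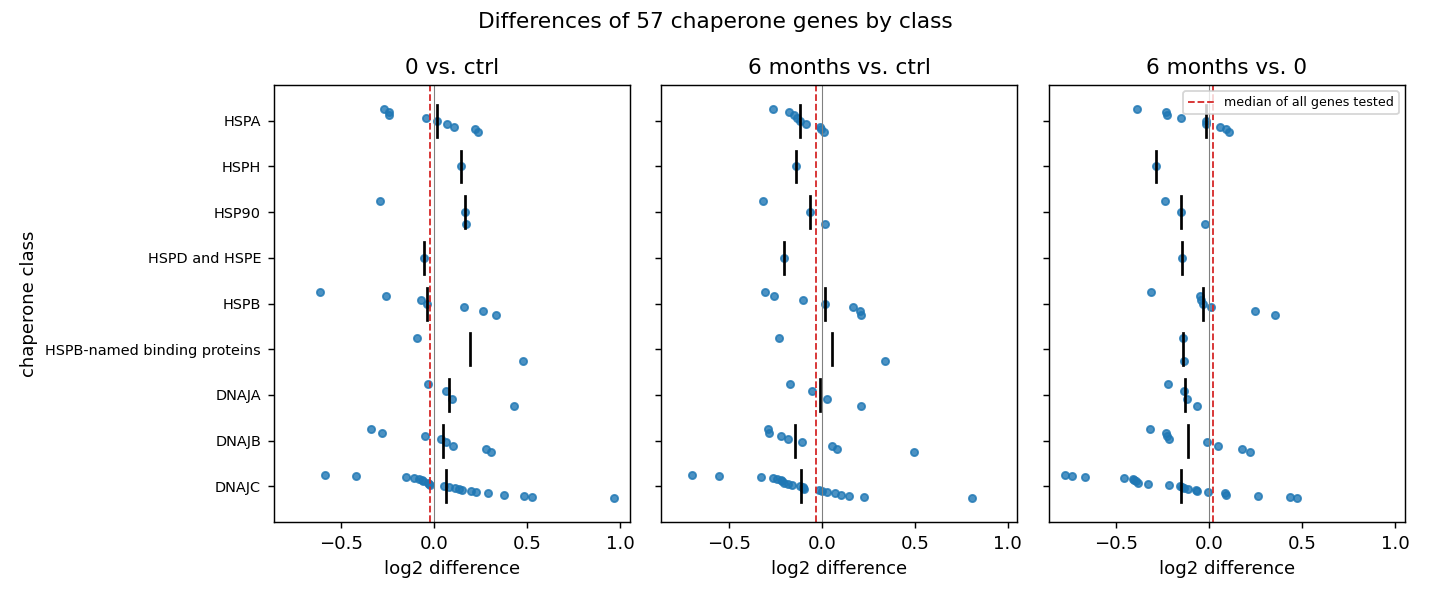
Log2 difference of each of the 57 chaperone genes (points) by class, with the class median (black bar) and the median of all genes tested (dashed line), for the 3 comparisons. In 6 months vs. 0, 43 of the 57 points lie below 0, and DNAJC11 at 0.96 is the point farthest right in 0 vs. ctrl.

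Of the HSP70 proteins (HSPA) 9 genes passed, and the 8 without HSPA12A, which entered through ctrl, had a median difference of 0.01 for 0 against ctrl, -0.13 for 6 months against ctrl and -0.09 over therapy. With single arrays left out the first ran from -0.05 to 0.09 and the second from -0.21 to -0.06. The last ran from -0.15 without dog 2 at 0 to 0.02 without dog 7 at 6 months. HSPA5, the HSP70 of the endoplasmic reticulum, ranged from -0.17 to 0.39 in ctrl (median 0.16), from -0.57 to 0.35 in 0 (median -0.13) and from -0.37 to 0.32 in 6 months (median -0.06). Its difference of -0.27 (SE 0.15) in 0 vs. ctrl had an exact permutation p of 0.0542, 2-sided, and an adjusted p of 0.482. Of the cAD patients, 6 of 7 lay below the ctrl median at 0, dog 4 lay above it, and the groups overlapped. The 3 probes of HSPA5 gave -0.37, -0.30 and -0.14 in this comparison, so all had the same sign.

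HSPA9, the HSP70 of mitochondria, ranged from -0.58 to 0.15 in ctrl (median -0.13), from -0.49 to 0.27 in 0 (median -0.17) and from -0.71 to 0.10 in 6 months (median -0.20). From 0 to 6 months it was lower in 5 of 7 dogs, with a mean difference of -0.15 (SE 0.15) and an exact sign-flip permutation p of 0.0938. It was -0.07 without dog 2 at 6 months and -0.10 without dog 4 at 0. The low end was dog 2 at both times, and the groups overlapped almost fully. HSPA4, a relative of HSP110 that serves HSP70 as exchange factor, had the narrowest spread of all 57 genes at 6 months (SD 0.16, n = 7). Its differences were -0.04, 0.01 and 0.06 in the 3 comparisons, each smaller than its SE of 0.13, and each changed sign when single arrays were left out (0.04 and -0.03 in the first and last without dog 2 at 0, and -0.03 in 6 months vs. ctrl without dog 3 at 6 months). HSPA1L, an HSP70 best known from the testis, was above background on 8 ctrl, 5 and 3 arrays in the order ctrl, 0 and 6 months. It ranged from -1.26 to 0.75 at 0, beyond the ctrl range of -0.27 to 0.34 on both sides. The largest difference of the class over therapy was that of HSPA4L, lower in 6 of 7 dogs (-0.39, SE 0.22, adjusted p 0.848 in limma).

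HSPH1, the HSP110 protein that resets HSP70 and that answers strongly to heat shock factor, ranged from -0.50 to 0.92 in ctrl (median -0.12). At 0 it ranged from -0.91 to 0.57 (median 0.13), and at 6 months from -0.64 to 0.13 (median -0.17). It was lower at 6 months in 6 of 7 dogs, by changes that ran from -0.67 to 0.28 (mean -0.28, SE 0.22, exact sign-flip permutation p 0.0469, limma adjusted p 0.902; group difference -0.45 without dog 2 at 0). The dog with the higher value at 6 months was dog 2, which had the lowest value of its group at both times. Dogs 1 to 3, with both arrays on the same slide, had changes of -0.37, 0.28 and -0.06 (mean -0.05, or -0.22 without dog 2 and 0.11 without dog 1), and dogs 4 to 7, with their arrays on different slides, had a mean of -0.46.

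HSP90AA1, the inducible HSP90 of the cytosol, ranged from -1.15 to 0.66 in ctrl (median 0.01), from -0.37 to 0.67 at 0 (median 0.13) and from -0.52 to 0.46 at 6 months (median 0.03). Its differences of 0.17, 0.02 and -0.15 were smaller than their SE of 0.22 or 0.23. Ctrl dog 5 lay far below the other ctrl dogs, and without it the differences from ctrl were 0.0073 at 0 and -0.14 at 6 months, while without ctrl dog 1 they were 0.27 and 0.12. The value over therapy ran from -0.23 without dog 2 at 0 to -0.06 without dog 4 at 0. HSP90AB1, the constitutive form, was held in a narrow band in ctrl, from -0.49 to -0.08 (median -0.34, SD 0.16). In 0 it spread from -1.18 to 0.64 (median -0.06, SD 0.60), and in 6 months from -1.10 to -0.03 (median -0.27, SD 0.36). At 0, 4 cAD patients lay above every ctrl dog and 1 lay below every ctrl dog, so patients lay on both sides of the ctrl band. That lowest patient was dog 2, and the difference of 0.17 (SE 0.21) had an exact permutation p of 0.444. It was 0.35 without dog 2 at 0, 0.08 without dog 5 at 0 and 0.04 without dog 4 at 0.

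HSP90B1, the HSP90 of the endoplasmic reticulum, ranged from -0.63 to 0.41 in ctrl (median 0.04), from -1.17 to 0.70 at 0 (median -0.37) and from -1.13 to 0.39 at 6 months (median -0.34). Its differences from ctrl were -0.29 and -0.32 (SE 0.25 in both), with exact permutation p of 0.261 and 0.193. Dog 2 was lowest at both times, and without it the differences were -0.15 at 0 and -0.18 at 6 months, while without dog 4 at 0 the former was -0.46. In both groups of cAD patients, 5 of 7 dogs lay below the ctrl median, and the groups overlapped.

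The mitochondrial chaperonin HSPD1 ranged from -0.71 to 0.64 in ctrl (median 0.18), from -0.80 to 0.50 at 0 (median 0.13) and from -0.60 to 0.37 at 6 months (median -0.07). It was lower at 6 months in 5 of 7 dogs (mean -0.15, SE 0.21, exact sign-flip permutation p 0.109; -0.29 without dog 2 at 0, -0.06 without dog 2 at 6 months and -0.07 without dog 7 at 0). Dog 2 stood alone at the low end at 0, and the other 6 dogs lay between 0.11 and 0.50. In the reference table of gene positions HSPD1 and HSPE1 are neighbours, and the pair could not be compared because HSPE1 did not pass the filter.

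The small heat shock proteins, which hold unfolded proteins without ATP, had medians of -0.06, 0.03 and -0.01 in the 3 comparisons over the 6 genes named HSPB other than HSPB11. Over therapy and against ctrl at 6 months the sign of this median depended on single arrays. HSPB1, the member most widely made, ranged from -0.91 to 0.75 in ctrl (median 0.10), from -0.67 to 0.29 at 0 (median -0.18) and from -0.62 to -0.06 at 6 months (median -0.22). All 7 dogs at 6 months lay below the ctrl median, and all lay inside the wide ctrl range (difference -0.30, SE 0.22, exact permutation p 0.242; -0.19 without ctrl dog 5). HSPB9, known from the testis, was higher in 5 of 7 dogs at 6 months than at 0 (0.25, SE 0.15, exact sign-flip permutation p 0.125; 0.15 without dog 7 at 6 months). In 0 vs. ctrl the class ran from -0.61 for HSPB3 to 0.26 for HSPB7, and HSPB11 had 0.33 (0.21 without dog 5 at 0). At 0 HSPB7 ranged from -0.54 to 0.94 (median 0.09), and its difference leans on dog 2, which had the highest value. HSPB8 was read by 6 probes, whose differences in 0 vs. ctrl ran from -0.90 to 0.58, and r between its probes ran from -0.35 to 0.34 over the 22 arrays. Of these probes 1 lies on the minus strand and is the exact reverse complement of another, so it reads the opposite strand. The gene mean of HSPB8 is therefore an average of probes that did not move together.

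HSPBAP1, which binds the small heat shock protein HSPB1, ranged from -0.61 to 0.12 in ctrl (median -0.14), from -0.19 to 0.62 at 0 (median 0.35) and from -0.69 to 0.60 at 6 months (median 0.28). Its difference of 0.48 (SE 0.18) in 0 vs. ctrl had an exact permutation p of 0.00482 and a limma adjusted p of 0.245. At 0, 5 of 7 patients lay above every ctrl dog, and at 6 months 5 of 7 did as well. Both probes were higher at 0 than in ctrl, by 0.71 and 0.25. By scan day, the patients at 0 lay between -0.0009 and 0.62 on day 3 and at -0.19 and 0.44 on day 2, and dog 3 at 6 months, scanned on day 3, lay at -0.69.

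The DNAJA proteins (4 genes) are the DNAJ proteins closest in build to the bacterial DnaJ. Their median difference was 0.08 for 0 against ctrl, -0.01 for 6 months against ctrl and -0.13 over therapy, where all 4 were lower in the mean. With single arrays left out these medians ran from 0.02 to 0.12, from -0.08 to 0.03 and from -0.21 to -0.07. DNAJA1, a partner of HSP70 in the cytosol, ranged from -0.51 to 0.92 in ctrl (median 0.08), from -0.18 to 0.34 at 0 (median 0.25) and from -0.17 to 0.36 at 6 months (median 0.06). Its differences were 0.06, -0.05 and -0.12, each smaller than its SE. Against ctrl they were -0.02 and -0.14 without ctrl dog 5, and 0.18 and 0.07 without ctrl dog 1. DNAJA4, which is induced by heat shock factor in many cells, ranged from -0.42 to 0.28 in ctrl (median -0.11), from -0.05 to 0.83 at 0 (median 0.36) and from -0.35 to 0.79 at 6 months (median -0.0024). At 0 all 7 patients lay above the ctrl median and 4 above every ctrl dog (0.43, SE 0.18, exact permutation p 0.0110, limma adjusted p 0.299). The patients scanned on day 3 lay between 0.22 and 0.83 at 0, and those scanned on day 2 at -0.05 and -0.01.

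DNAJB1, the main inducible partner of HSP70 in the cytosol, ranged from -0.54 to 1.30 in ctrl (median -0.06), from -0.56 to 1.01 at 0 (median 0.50) and from -0.29 to 0.81 at 6 months (median 0.74). At 6 months 6 of 7 dogs lay between 0.66 and 0.81, and dog 4 lay alone at -0.29. The difference from ctrl was 0.50 (SE 0.27, exact permutation p 0.0758, limma adjusted p 0.684), and ctrl dog 1 was higher than all of them. Of its 3 probes, 2 moved together (r = 0.961 over the 22 arrays) with differences of 0.61 and 0.82 in 6 months vs. ctrl. The other probe gave 0.06 and had an r near 0 with both, so the gene mean is drawn down by 1 probe.

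DNAJB12, a DNAJ protein anchored in the membrane of the endoplasmic reticulum, ranged from -0.14 to 0.24 in ctrl (median 0.10). At 0 it ranged from -0.62 to 0.04 (median -0.06), and at 6 months from -0.35 to 0.24 (median 0.01). All 7 patients lay below the ctrl median at 0, 3 of them below every ctrl dog (-0.28, SE 0.13, exact permutation p 0.0180, limma adjusted p 0.385). These 3, dogs 4, 5 and 7, were scanned on day 3. The patients scanned on day 3 lay between -0.62 and 0.02 at 0, and those scanned on day 2 at -0.06 and 0.04. At 6 months 6 of 7 still lay below the ctrl median, at a difference of -0.10 (SE 0.13; -0.05 without dog 7 at 6 months). The 5 DNAJB genes above background on 7 or more cAD arrays had medians of 0.06, -0.10 and -0.0097 in the order 0 vs. ctrl, 6 months vs. ctrl and 6 months vs. 0, and DNAJB5, DNAJB7 and DNAJB8 were left out of these. With single arrays left out the first median ran from -0.02 (without ctrl dog 5) to 0.11. The second ran from -0.14 to -0.05 and the last from -0.09 to 0.08.

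The DNAJC proteins (22 genes) share only the short J domain that starts the cycle of HSP70, and work in places as different as the nucleus, the ribosome and mitochondria. For the 18 of them above background on 7 or more cAD arrays, the median difference was 0.12 before therapy and -0.10 after it, both against ctrl, and -0.19 from 0 to 6 months. With single arrays left out these ran from 0.05 to 0.16, from -0.19 to -0.05 and from -0.33 to -0.12. DNAJC11, a protein of the mitochondrial membranes that belongs to the machinery shaping the cristae, had the largest difference of all 57 genes in 0 vs. ctrl. It ranged from -0.39 to 0.34 in ctrl (median 0.09), from -0.30 to 1.67 at 0 (median 1.25) and from -0.29 to 0.71 at 6 months (median 0.30). The difference of 0.96 (SE 0.26) in 0 vs. ctrl had an exact permutation p of 0.0110 and a limma adjusted p of 0.129. Before therapy 5 of 7 patients lay above every ctrl dog, and the other 2 lay within the ctrl range.

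These patients divide by scan day. The 5 patients scanned on day 3 had 1.07 to 1.67 for DNAJC11 at 0, and dogs 1 and 2, scanned on day 2, had 0.02 and -0.30. At 6 months dogs 1 and 2, scanned on day 2 again, had -0.08 and -0.29, dog 3, scanned on day 3 again, had 0.71, and dogs 4 to 7, scanned on day 4, had 0.24 to 0.47. Over therapy DNAJC11 was lower in 6 of 7 dogs (-0.73, SE 0.27, exact sign-flip permutation p 0.0312, limma adjusted p 0.546), with changes of -0.10, 0.01 and -0.90 in dogs 1 to 3 (mean -0.33, or -0.04 without dog 3) and a mean of -1.04 in dogs 4 to 7. In limma DNAJC11 passed after adjustment in 0 vs. ctrl without dog 1 at 0 (1.13, adjusted p 0.0260) and without dog 2 at 0 (1.18, adjusted p 0.0310). Dogs 1 and 2 are the patients with the low values, so a larger difference without them is fixed by that choice. The 31 settings run in 0 vs. ctrl include leaving out either of these dogs but not both. Over them the difference ran from 0.12 (normexp) to 1.18 (without dog 2 at 0). The adjusted p ran from 0.0218 (Cy5 alone) to 1 and was under 0.05 in 3 of them. Over 34 such settings in 6 months vs. 0 the difference ran from -0.95 to -0.09 (Cy5 alone) and the adjusted p from 0.106 to 1. All ctrl dogs were scanned on day 1, so group and scan day cannot be told apart in the comparisons with ctrl. Its Cy3 signal, from the reference, was above background on 12 arrays and its Cy5 signal on 21.

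DNAJC17, a DNAJ protein of the nucleus tied to splicing, ranged from -0.06 to 0.37 in ctrl (median 0.01), from -0.10 to 0.97 at 0 (median 0.75) and from -0.22 to 0.90 at 6 months (median 0.05). The difference of 0.53 (SE 0.17) in 0 vs. ctrl had an exact permutation p of 0.00715 and a limma adjusted p of 0.181. Without dog 1 at 0, the patient with the lowest value, the difference was 0.65 (limma adjusted p 0.0453). The larger difference is fixed by that choice, and all genes called were 437 there, so this pass is read as no result. Over the same 31 settings the adjusted p ran from 0.0156 to 1. Its high values were those of a single scan day. The 5 patients scanned on day 3 at 0 lay between 0.69 and 0.97, and the only 6-month array scanned on that day, of dog 3, lay at 0.90. On day 2 dogs 1 and 2 had -0.10 and 0.25 at 0 and 0.24 and -0.02 at 6 months, on day 4 dogs 4 to 7 had -0.22 to 0.16, and on day 1 ctrl did not exceed 0.37. DNAJC17 was thus 0.69 or more on all 6 arrays of day 3, before and after therapy, and 0.37 or less on all 16 other arrays. In 6 months vs. 0 it was lower in 6 of 7 dogs (-0.46, SE 0.18, exact sign-flip permutation p 0.0625). Dogs 1 to 3, scanned on 1 day for both times, had changes of 0.34, -0.27 and -0.08, dogs 4 to 7 had a mean of -0.80, and with the slide as a fixed block the difference was 0.03.

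**Figure D2:**
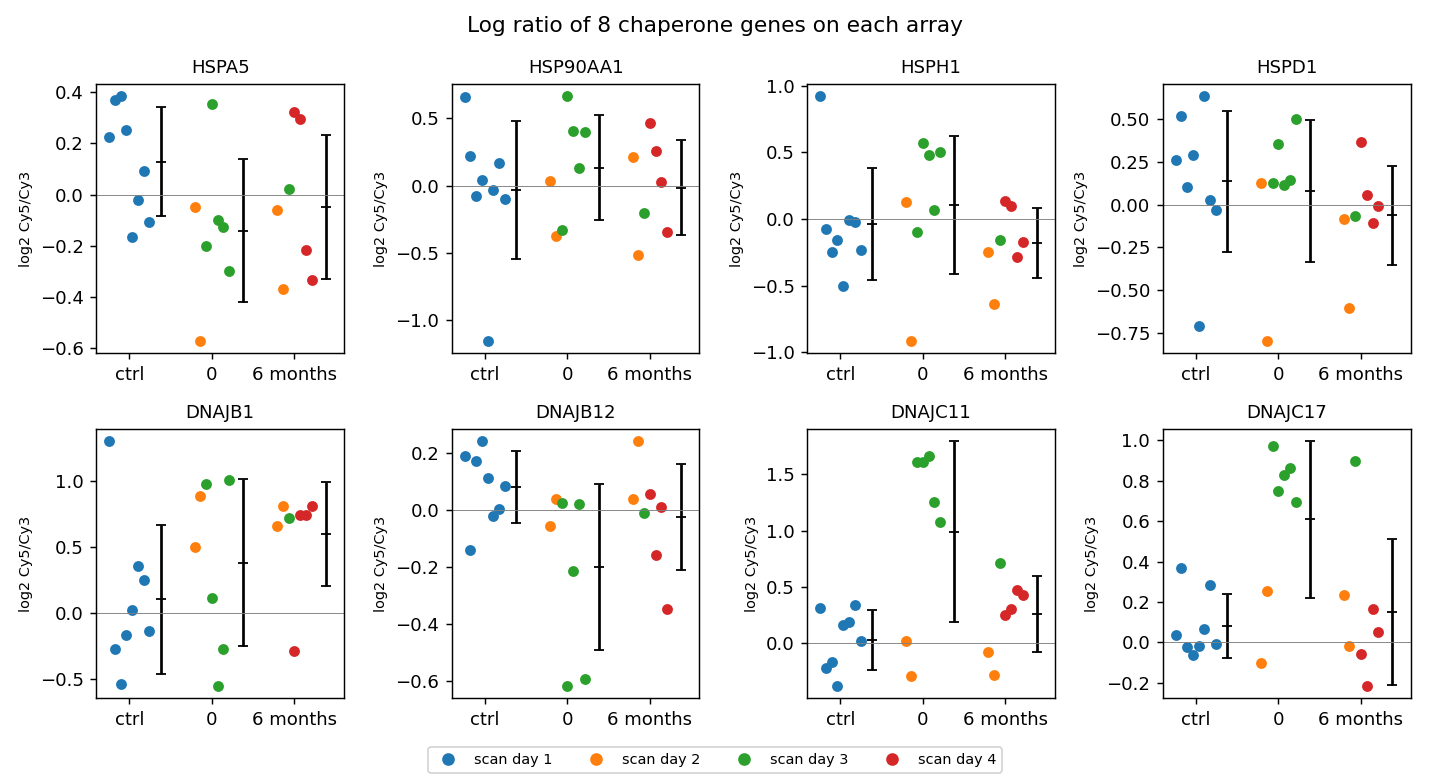
Log2 ratio of Cy5 to Cy3 of 8 chaperone genes on each of the 22 arrays by group, coloured by scan day, with mean and SD as bars. DNAJC17 lies between 0.69 and 0.97 on the 6 arrays of scan day 3 and at 0.37 or below on the rest, and DNAJC11 reaches 1.67 on the same day.

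DNAJC21, which helps to recycle a factor of ribosome assembly, and DNAJC30, a mitochondrial protein, were both lower at 6 months than at 0 in 6 of 7 dogs. DNAJC21 ranged from -1.01 to 0.45 in ctrl (median -0.32), from -0.79 to 0.56 at 0 (median -0.01) and from -1.01 to -0.12 at 6 months (median -0.52). Its difference over therapy was -0.41 (SE 0.21, exact sign-flip permutation p 0.0312, limma adjusted p 0.795), with -0.42, -0.21 and 0.01 in dogs 1 to 3 (mean -0.21, or -0.32 without dog 3 and -0.10 without dog 1) and a mean of -0.57 in dogs 4 to 7. DNAJC30 ranged from -0.89 to 0.50 in ctrl (median -0.19), from -0.43 to 0.27 at 0 (median 0.12) and from -1.12 to 0.06 at 6 months (median -0.45). Its difference was -0.41 (SE 0.20, exact sign-flip permutation p 0.0469, limma adjusted p 0.772). Dogs 1 to 3 had changes of -0.31, -0.87 and -0.06 (mean -0.41, or -0.18 without dog 2) and dogs 4 to 7 had a mean of -0.40. DNAJC7, a co-chaperone that passes clients between HSP70 and HSP90, differed by -0.39 (SE 0.19, exact sign-flip permutation p 0.0312, limma adjusted p 0.751). It changed by -0.18, -0.76 and -0.25 in dogs 1 to 3 (mean -0.40, or -0.22 without dog 2) and by a mean of -0.39 in dogs 4 to 7. Within slides the values of both genes rest largely on dog 2. In all 3 genes the ranges at 0 and at 6 months overlapped.

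DNAJC22, a membrane protein, had the largest mean difference of all members in 6 months vs. ctrl. It ranged from -0.38 to 1.24 in ctrl (median 0.20), from -1.19 to 1.73 at 0 (median 0.76) and from -0.60 to 2.24 at 6 months (median 1.13). The difference of 0.81 (SE 0.40, exact permutation p 0.0494, limma adjusted p 0.682) was not seen in the Cy5 channel alone, where it was -0.04. At 6 months 6 of 7 dogs lay above the ctrl median, 3 of them above every ctrl dog, and 1 lay below every ctrl dog. Over therapy DNAJC22 changed by -0.76 to 2.04 in single dogs and was lower in 4 of 7, with a mean of 0.43 (SE 0.42; 0.14 without dog 5 at 0, 0.23 without dog 7 at 6 months and 0.70 without dog 4 at 6 months). By dog, from 1 to 7, DNAJC22 changed by -0.12, -0.46, -0.16, -0.76, 2.04, 1.78 and 0.71, DNAJB1 by 0.16, -0.08, -0.26, -0.40, 1.30, 1.01 and -0.20, and the median of the erythroid list by 0.18, 0.36, -0.63, -0.75, 1.08, 1.27 and -0.12. All 3 rose most in dogs 5 and 6 and fell in dogs 3 and 4, and the part of red cells in the values of these genes was not tested. DNAJC18 differed by -0.77 (SE 0.36, limma adjusted p 0.725) in 6 months vs. 0 and is dim, with Cy5 above background on 16 of the 22 arrays. DNAJC27 and DNAJC5B, above background on 13 and 11 arrays, are too dim in the patients for their differences to be given. Of the 22 DNAJC genes, 17 were lower at 6 months than at 0 (77.3%, beside 46.8% of all genes tested).

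Over the 57 genes together the differences leaned to one side in 6 months vs. 0. There 43 were lower and 14 higher (75.4% lower, beside 46.8% of all genes tested), with a median of -0.14 beside 0.02 for all genes. The comparisons with ctrl are given for the 49 genes above background on 7 or more cAD arrays, beside the 20620 genes of the array that meet the same limit, so that genes that entered through ctrl do not count. In 0 vs. ctrl 29 of the 49 were higher and 20 lower (40.8% lower, beside 48.1%), with a median of 0.08 beside 0.01. After therapy 17 were higher than ctrl and 32 lower (65.3% lower, beside 53.5%), with a median of -0.10 beside -0.02. With single arrays left out the median of the 49 ran from 0.02 to 0.12 in the former comparison and from -0.14 to -0.05 in the latter. From 0 to 6 months 39 of the 49 were lower (79.6%, beside 50%). Among the 42 genes above background on all arrays, 17 were lower in 0 vs. ctrl (40.5%, beside 47.6% of the 15804 genes so chosen), 28 in 6 months vs. ctrl (66.7%, beside 54.6%) and 35 in 6 months vs. 0 (83.3%, beside 50.1%). The median over the chaperone genes in 6 months vs. 0 was below 0 under every alternative run, from -0.22 with Cy5 alone to -0.06 with normexp. It was taken over 40 genes with the strict filter, 58 with no filter, 104 single probes, and the 57 genes otherwise. These are counts of genes and not of dogs, and genes of a dog are not independent.

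By dog, the median change of the 57 genes was 0.01, -0.06 and -0.04 in dogs 1 to 3, whose arrays lay on the same slide at both times. In dogs 4 to 7, whose arrays lay on different slides, it was -0.04, -0.23, -0.14 and -0.28. The median change of all genes was between -0.03 and 0.09 in the 7 dogs. In dogs 1 to 3 alone the median difference was -0.06 and 18 of the 57 genes were higher, and with the slide as a fixed block it was -0.11 and 12 were higher. Markers of lymphocytes leaned the same way over therapy, where 46.8% of all genes tested were lower. Of the T cell list 7 of 9 genes were lower (median -0.27), of the B cell list 7 of 8 (median -0.27) and of the cytotoxic list 4 of 5 (median -0.26, or -0.39 without NCR1). Their per-dog medians were higher at 6 months in dogs 1 and 2 for the T cell list (0.03 and 0.05) and ran from -0.68 to -0.15 in dogs 3 to 7. For the B cell list they were 0.08 and 0.19 in dogs 1 and 2 and -0.58 to -0.17 in dogs 3 to 7. For the cytotoxic list they were 0.40, 0.06 and 0.10 in dogs 1, 2 and 7 and -0.80 to -0.57 in dogs 3 to 6. In dog 3, with both arrays on 1 slide, the T cell and B cell medians changed by -0.68 and -0.58, and the chaperone median by -0.04. The part of cell composition in the chaperone values was not tested, and fewer cells of a type and less RNA per cell cannot be told apart in blood RNA.

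**Figure D3:**
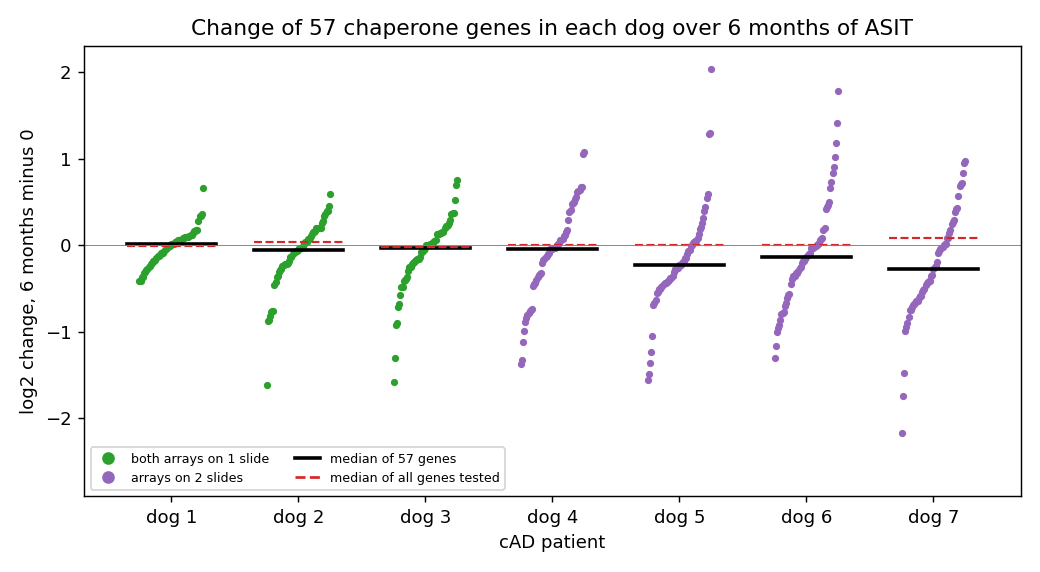
Change in log2 ratio from 0 to 6 months of each of the 57 chaperone genes (points, in order of size) in each of the 7 dogs, with the median of the 57 genes (black bar) and of all genes tested (dashed line). The medians of the 57 genes run from 0.01 in dog 1 to -0.28 in dog 7, and the spread is narrowest in dog 1.

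The other cell lists were also given by count and median. All lists had 0 genes past limma's adjusted threshold in the 3 comparisons. In 0 vs. ctrl, 6 months vs. ctrl and 6 months vs. 0 the medians were -0.11, 0.03 and 0.06 for neutrophils (8 genes), -0.12, -0.01 and 0.14 for monocytes (8 genes), 0.46, 0.89 and 0.24 for the erythroid list (7 genes) and -0.55, -0.12 and 0.36 for platelets (5 genes). For T cells, B cells and the cytotoxic list they were 0.10, 0.04 and 0.10 in 0 vs. ctrl and -0.27, -0.23 and -0.19 in 6 months vs. ctrl. Without NCR1, above background on 1 cAD array, the cytotoxic list had 0.14 and -0.28 there. Leaving out single arrays turned the sign of the neutrophil and monocyte medians in each of the 3 comparisons. In 0 vs. ctrl it turned those of the T cell, B cell and cytotoxic lists. The erythroid median over therapy was -0.05 without dog 5 at 0. That of platelets in 6 months vs. ctrl was 0.02 without dog 4 at 6 months. Before adjustment, 3 genes of all 7 lists were under 0.05 in 0 vs. ctrl (ALPL, PPBP and ITGB3, all lower). In 6 months vs. ctrl these were CD68 and ALAS2 higher and GZMK lower, and in 6 months vs. 0 ALPL higher and CD2 lower. Markers of all 7 kinds of blood cell were above background on all 22 arrays, from 4 of 8 for the cytotoxic list to 8 of 8 for monocytes.

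The spread among dogs was wider in the patients than in ctrl for the chaperone genes and for all genes alike. The median SD of the 57 genes was 0.288 in ctrl, 0.416 at 0 and 0.394 at 6 months, beside 0.289, 0.52 and 0.441 for all genes tested. Over the classes, dog 2 was most often the lowest patient at both times and ctrl dog 5 the lowest control, while dog 4 was most often the highest patient at 6 months. The median of the 57 genes on an array ran from -0.22 in ctrl dog 5 to 0.16 in ctrl dog 1, from -0.20 in dog 2 to 0.20 in dog 5 at 0, and from -0.36 in dog 2 to 0.10 in dog 4 at 6 months.

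Genes known to work together were compared across dogs within each group, which gave 12 relations from 4 of 6 planned pairs, since HSPE1 did not pass the filter and HSPA8 has no probe under that name. Pairs of unrelated genes were not compared, so whether a high r is particular to these pairs was not tested. The 2 endoplasmic reticulum chaperones HSPA5 and HSP90B1 had a Pearson r of 0.923 in ctrl (exact permutation p 0.000422, adjusted over the 12 relations 0.00476; Spearman rho 0.881, exact permutation p 0.00724, adjusted 0.0290). At 0 the r was 0.849 (exact permutation p 0.0240, adjusted 0.0480; rho 0.714, exact permutation p 0.0881, adjusted 0.118) and at 6 months 0.902 (exact permutation p 0.00774, adjusted 0.0205; rho 0.857, exact permutation p 0.0238, adjusted 0.0476). Without the 2 dogs farthest from the median of HSPA5 it was 0.925 in ctrl, 0.01 at 0 and 0.617 at 6 months, so at 0 it rests on 2 dogs. After centring on the slide it was 0.836, 0.881 and 0.962. Slide-centred values at 6 months, here and below, are over 6 dogs, since dog 3 was alone of its group on its slide.

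The inducible HSP90AA1 and its HSP110 companion HSPH1 were related at 0 with r = 0.884 (exact permutation p 0.000794, adjusted 0.00476; rho 0.929, exact permutation p 0.00675, adjusted 0.0290; 0.941 without 2 dogs). In ctrl r was 0.787 (exact permutation p 0.0766, adjusted 0.102; rho 0.810, exact permutation p 0.0218, adjusted 0.0476; 0.616 without 2 dogs). At 6 months it was 0.780 (exact permutation p 0.0345, adjusted 0.0518; rho 0.714, exact permutation p 0.0881, adjusted 0.118; 0.313 without 2 dogs). Centred on the slide, r was 0.745 in ctrl, 0.835 at 0 and 0.853 at 6 months. The relation thus had the same sign in each group and slide-centred value, and was least held by single dogs at 0.

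The HSP90 forms HSP90AA1 and HSP90AB1 had r = 0.917 at 0 (exact permutation p 0.00179, adjusted 0.00714; rho 1, exact permutation p 0.000397, adjusted 0.00476; 0.844 without 2 dogs) and 0.825 at 6 months (exact permutation p 0.00853, adjusted 0.0205; rho 0.893, exact permutation p 0.0123, adjusted 0.0369; 0.737 without 2 dogs). In ctrl it was 0.250 (exact permutation p 0.604, adjusted 0.604; rho -0.0714, exact permutation p 0.882, adjusted 0.882; -0.387 without 2 dogs). Slide-centred values were 0.0789, 0.927 and 0.851 in the order ctrl, 0 and 6 months. In ctrl HSP90AB1 hardly varied, and whether the relation differs between groups was not tested. HSPH1 and DNAJB1, both targets of heat shock factor, had r = 0.862 in ctrl (exact permutation p 0.0294, adjusted 0.0504; rho 0.667, exact permutation p 0.0831, adjusted 0.118; 0.804 without 2 dogs, 0.951 centred on the slide). In the patients it was -0.428 at 0 (exact permutation p 0.355, adjusted 0.387; rho -0.179, exact permutation p 0.713, adjusted 0.778; -0.223 without 2 dogs, -0.261 centred) and -0.567 at 6 months (exact permutation p 0.188, adjusted 0.226; rho -0.429, exact permutation p 0.354, adjusted 0.424; 0.222 without 2 dogs, -0.557 centred).

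Genes of the same pathways that are not heat shock proteins by name were given from lists. All lists had 0 genes past limma's adjusted threshold in each comparison. Of all genes above background on 7 or more cAD arrays, 48.1% were lower in 0 vs. ctrl. The share was 53.5% in 6 months vs. ctrl and 50% in 6 months vs. 0. Of the endoplasmic reticulum folding genes, 19 of 23 (82.6%) were lower at 0 than in ctrl (median -0.13, EDEM1 and TXNDC5 under an unadjusted p of 0.05). At 6 months 21 of 23 (91.3%) were lower than in ctrl (median -0.11, TRIB3 under it and higher). Over therapy 9 of 23 (39.1%) were lower (median 0.03). HSPA5 and HSP90B1 were lower than ctrl in the same 2 comparisons, which share their ctrl arrays, except that the brightest probe of HSPA5 gave 0.03 in 6 months vs. ctrl. Without dog 2 at 0 the median of the endoplasmic reticulum folding genes was -0.05 in 0 vs. ctrl and -0.07 over therapy. Without dog 2 at 6 months it was -0.03 in 6 months vs. ctrl. The cytosolic chaperonin CCT and prefoldin, which fold actin and tubulin, had 6, 8 and 8 of 9 genes lower in 0 vs. ctrl, 6 months vs. ctrl and 6 months vs. 0 (medians -0.06, -0.21 and -0.13; 0 under an unadjusted p of 0.05). The first median was 0.06 without dog 2 at 0 and the second -0.14 without dog 2 at 6 months. The last ran from -0.23 without dog 2 at 0 to -0.01 without dog 2 at 6 months.

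Co-chaperones and exchange factors of HSP70 and HSP90 had 13, 15 and 16 of 28 genes lower in that order (medians 0.01, -0.02 and -0.05), without CRYAB, which entered through ctrl. These are 46.4%, 53.6% and 57.1%, near the 48.1%, 53.5% and 50% of all genes above background on 7 or more cAD arrays. With single arrays left out these medians ran from -0.02 to 0.05, from -0.05 to 0.0004 and from -0.08 to -0.0033. Before adjustment BAG3, an exchange factor of HSP70, was lower than ctrl at both times. Heat shock factors and their regulators had 4 genes tested, of which HSF4 entered through ctrl. The other 3 had medians of -0.09, -0.08 and 0.02, and HSF2BP was higher at an unadjusted p under 0.05 in 6 months vs. 0. Their medians ran from -0.12 to -0.02, from -0.10 to 0.0024 and from -0.06 to 0.05 with single arrays left out. Immediate-early genes, which cells transcribe within minutes of a stimulus, had 12, 14 and 11 of 16 genes higher (medians 0.12, 0.23 and 0.07). The share lower was 25%, 12.5% and 31.2%, beside the same 48.1%, 53.5% and 50%. Of these DUSP1 and NR4A1 were under an unadjusted p of 0.05 and higher in 0 vs. ctrl, and FOS and NR4A1 in 6 months vs. ctrl. The median of the immediate-early genes in 0 vs. ctrl was 0.0091 without dog 2 at 0. Over therapy it ran from 0.02 to 0.13 with single arrays left out.

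Where a gene had several probes they could be set side by side. Of the 57 genes 26 had more than 1 probe and 31 had 1, so DNAJC11, DNAJC17, DNAJC21, DNAJC30 and DNAJB12 each rest on 1 sequence. Probes of a gene differed in sign in 9 genes in each comparison, and 3 genes had probes with r below 0 (DNAJB1, DNAJC16 and HSPB8). A pair of DNAJA3 probes is shown because they read nearly the same stretch (DNAJA3 is the DNAJ protein of the mitochondrial matrix). They lie on the minus strand of CanFam3.1 at chr6:36933989-36934048 and chr6:36933983-36934042, and capitals mark the 54 bases they share.
DNAJA3 probe A: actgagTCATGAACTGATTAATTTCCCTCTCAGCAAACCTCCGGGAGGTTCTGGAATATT
DNAJA3 probe B: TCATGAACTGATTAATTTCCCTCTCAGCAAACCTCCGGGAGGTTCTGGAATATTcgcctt
Over the 22 arrays they had r = 0.932 and a median absolute difference of 0.185. A pair of DNAJC10 probes that share 20 bases had r = 0.804 and a median absolute difference of 0.126.

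The families are alike in protein, so shared sequence between probes of different genes was looked for. The longest run that a member's probe shared with a probe of another member was 7 to 12 bases of 60 (median 9). Runs of 12 bases were found in 3 pairs, HSPH1 with DNAJB4 and the pairs shown, in capitals, for HSPA9 (minus strand, chr11:26137740-26137799) with HSPA13, another HSP70 (minus strand, chr31:11367888-11367947), and for HSP90B1 (plus strand, chr15:42459518-42459577) with DNAJC21 (minus strand, chr4:73354296-73354355), on CanFam3.1.
HSPA9: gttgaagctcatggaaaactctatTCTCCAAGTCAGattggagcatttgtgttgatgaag
HSPA13: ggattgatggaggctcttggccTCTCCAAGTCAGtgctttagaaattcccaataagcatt
HSP90B1: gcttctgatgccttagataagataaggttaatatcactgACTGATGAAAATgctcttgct
DNAJC21: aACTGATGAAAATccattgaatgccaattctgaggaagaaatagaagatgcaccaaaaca
Whether a probe also binds transcripts of other genes was not tested. The probes of the genes with the lowest adjusted p in 0 vs. ctrl are shown because the values of these genes rest on them alone, with capitals on the longest run shared with another member, DNAJC18 for DNAJC11 (8 bases) and DNAJC22 for DNAJC17 (9 bases). That of DNAJC11 lies on the minus strand, and its interval in the files, chr5:60462864-60465929, is 3066 bases long for a probe of 60. That of DNAJC17 lies on the minus strand at chr30:7910062-7910121.
DNAJC11: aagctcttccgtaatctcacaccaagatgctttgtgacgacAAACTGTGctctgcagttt
DNAJC17: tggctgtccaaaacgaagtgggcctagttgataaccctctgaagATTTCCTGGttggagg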

How the data were processed

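The arrays of 22 blood samples were read as deposited. The authors scanned each array and, with Agilent Feature Extraction (10.7.3.1 per the labels, 10.10.1.1 per the file headers), wrote each spot's raw intensity, a processed intensity after background subtraction and Lowess normalization, and the deposited log10 ratio of Cy5 to Cy3. The authors also deposited a series matrix of log10 ratios. It equals the scanner ratios for the 14 cAD arrays and correlates with them by 0.711 to 0.844 for ctrl, and its column medians run from -0.000208 to 0.00729. So the ctrl columns share the direction of the scanner files and are centred near 0, while their scale and how they were made are unknown. It served as an alternative only.

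Log10 ratios were converted to log2, control and outlier-flagged spots were left out, and probes passing the filter were averaged per gene name. The 3 groups were compared in 1 fit with limma 3.58.1 (R 4.3.3, statmod 1.5.0, data.table in version 1.17.8), at an adjusted p under 0.05. Exact permutation tests of single genes were 2-sided, between groups (smallest possible p 0.000155) and by sign flips within the 7 dogs (smallest 0.0156). Python 3.11.15 with numpy 2.4.6, pandas 2.3.3, scipy 1.17.1 and matplotlib 3.10.9 made the other values and the figures. The fit was tested on simulated data. The number of arrays limits the precision. Dogs were paired by the dog number in the source and condition labels, since the titles after therapy all name patient 1. The arrays of a dog correlated above 0.1 in 6 of 7 dogs, and best with each other in 4. Of these 4, dogs 1 and 2 had both arrays on 1 slide. Dog 6 had an r of -0.0422, so this is weak support for the pairing.

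Named genes are 12 core chaperones that passed the filter and, in each comparison, the 3 largest rises and 3 largest falls among genes above background on all arrays, which gave 20 genes. The members and lists were chosen with earlier results of these data known. The alternatives were normexp with an offset of 50 and loess, the ratio of processed signals, the series matrix, Cy5 alone, no filter, a strict filter, the brightest probe, single probes, the slide or scan day as a random block, the methods' one-way test, each array left out and, for 6 months vs. 0, blocks for the dog or, as fixed terms, for the slide, and the fit of dogs 1 to 3 by themselves. Leaving out dogs 1 and 2 was chosen after seeing the data. Promoter and protein sequences were not at hand. Gene neighbours were read from the RefSeq table, in which 57 of 58 member names were found.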

Additional observations from a re-analysis of the deposited data

Results flagged for a closer look

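In 78 groups of 7 or 8 arrays, single arrays standing apart from the rest of their group were looked for, by the gap to the nearest other array as a share of the group's range. Chance flags about 1 in 20 groups, and 7 were found here.

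For DNAJB1 at 6 months dog 4 lay at -0.288, with the next array at 0.657. For DNAJC17 at 6 months dog 3 lay at 0.897, with the next at 0.236, and this array is the only one of its group scanned on day 3. For HSP90AA1 in ctrl dog 5 lay at -1.155, with the next at -0.10. The median of the DNAJC class was lowest in the same ctrl dog 5, at -0.265, with the next at -0.02.

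For HSPA9 at 6 months dog 2 lay at -0.713, with the next at -0.224, and for HSPD1 at 0 the same dog lay at -0.798, with the next at 0.114. For HSPH1 in ctrl dog 1 lay at 0.924, with the next at -0.004. Ctrl dog 5 and dog 2 account for 2 each of the 7.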

How the results depend on the processing

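The named genes' differences were compared under normexp, the processed ratio, the series matrix, Cy5 alone, the strict filter, the brightest probe, the slide as a random block and, in 6 months vs. 0, the blocks for dog and slide and dogs 1 to 3 alone. Of these 441 kept their direction and their side of the threshold, 5 kept their direction and passed it, all with Cy5 alone, and 25 changed sign. Outside this tally DNAJC17 also passed in 0 vs. ctrl without dog 1 at 0, which has its lowest value among patients. The larger difference is fixed by that choice, so this pass is read as no result. With each array left out in turn, the chaperone genes past the adjusted threshold ran from 0 to 2 in 0 vs. ctrl and were 0 in the other comparisons. Those under an unadjusted p of 0.05 ran from 3 to 9 in 0 vs. ctrl, from 1 to 4 in 6 months vs. ctrl and from 2 to 10 in 6 months vs. 0, beside at most 14.9%, 13% and 10.5% of all genes. All genes called ran from 0 to 437, from 0 to 2 and from 0 to 101. In the replicate block (dog) 0 chaperone genes passed limma, with 7 under an unadjusted p of 0.05 (12.3%, all genes 6.78%).

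Cy5 alone called 11 chaperone genes and 6947 genes in 0 vs. ctrl, 6 and 5038 in 6 months vs. ctrl, with 20 and 17 chaperone genes under an unadjusted p of 0.05 (35.1% and 29.8%, all genes 37.8% and 33.5%). Without dogs 1 and 2, a setting chosen after seeing the data, the calls were 2, 0 and 1 chaperone genes and 1491, 182 and 191 genes in 0 vs. ctrl, 6 months vs. ctrl and 6 months vs. 0, with 14 and 4 chaperone genes unadjusted in the comparisons with ctrl (24.6% and 7.02%, all genes 18.5% and 12.1%). Their arrays had 87.4%, 61.2%, 81.6% and 80.8% of probes above background in Cy5, beside 53.3% to 64.9% on the other cAD arrays, so dog 2 at 0 did not stand apart. Dogs 1 and 2 are also the patients with the lowest DNAJC11 and DNAJC17 at 0, so larger differences of these genes without them are fixed by the choice. Their calls in this setting are read as no result. In 0 vs. ctrl all genes called were 0 with normexp, with the strict filter, with the slide or the scan day as a random block and with the methods' one-way test, 6 with the series matrix and 20 with no filter. With no filter they were 10 in 6 months vs. ctrl and 1 in 6 months vs. 0.

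Unadjusted chaperone counts are given with the share of all genes in brackets. In 0 vs. ctrl they were 3 with the strict filter, which tests fewer genes (8.79%), and 2 with the scan day as a random block (3.42%). In 6 months vs. ctrl they were 3 with the brightest probe (7.42%), 5 among single probes (7.2%), and 0 with the slide (3.02%) or scan day (1.22%) as a random block or the methods' one-way test (2.86%). In 6 months vs. 0 they were 8 among single probes (5.96%), 2 with the strict filter (2.2%), the slide (4.55%) or scan day (3.85%) as a random block or the one-way test (2.91%), and 0 with the slide as a fixed block (2.15%) or in dogs 1 to 3 alone (3.9%). Apart from the tests with fewer genes or dogs, the cause was not tested.

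Signs that changed in 6 months vs. 0 in dogs 1 to 3 alone were those of DNAJA1 (0.026), DNAJB1 (-0.059), DNAJC22 (-0.25), HSP90AA1 (0.052), HSP90AB1 (0.024), HSP90B1 (0.13) and HSPA1L (-0.021). With the slide as a fixed block they were DNAJC17 (0.033), DNAJC22 (-0.014) and HSPA1L (-0.044), and with the brightest probe HSP90B1 (0.010). Cy5 alone reversed HSPA1L (-0.39), HSPA5 (-0.049) and HSPB1 (0.14) there, DNAJC22 in 0 vs. ctrl (-0.30), and in 6 months vs. ctrl DNAJC22 (-0.040), DNAJC30 (0.35), HSP90AA1 (-0.076), HSPA4 (-0.031) and HSPB1 (0.032). Normexp reversed DNAJA4 in 6 months vs. ctrl (-0.0073) and HSPA4 (0.020) and HSPD1 (0.028) in 0 vs. ctrl. The brightest probe reversed HSPA4 in 0 vs. ctrl (0.042) and HSPA5 in 6 months vs. ctrl (0.027). The cause was not tested.

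Dim signal limits the cAD arrays most, since a ratio is written as 0 for part of the spots at background. All ctrl arrays lie on their own slides and scan day, so the comparisons with ctrl cannot be told apart from these. Age, sex and breed could not be used. Lists and members are not independent measurements, no dyes were exchanged, and 31 genes rest on 1 probe.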
